A study of Mus musculus with 6 samples.

Results

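Serine and asparagine synthesis and the genes that accompany it under the transcription factor ATF4 were examined in IL-11-producing and other stromal cells of the inflamed mouse colon. The group holds 10 genes, *Phgdh*, *Psat1*, *Psph*, *Asns*, *Shmt2*, *Mthfd2*, *Chac1*, *Trib3*, *Sesn2* and *Atf5*. They were taken by gene symbol, and all 10 were found among the 20327 symbols counted in each library.
ATF4 protein accumulates when the initiation factor eIF2α is phosphorylated by kinases that sense a shortage of amino acids, unfolded protein in the endoplasmic reticulum (ER), a lack of heme or viral RNA, a program known as the integrated stress response. Together with C/EBP partners it binds composite elements in genes of amino acid synthesis, amino acid uptake and tRNA charging. Serine, which can be made from glucose, is a source of glycine and of one-carbon units. Fibroblasts that lay down collagen, a protein rich in glycine, are known to depend on serine synthesis.

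The cells came from *Il11-Egfp* mice of the C57BL/6 strain, transgenic for a bacterial artificial chromosome that expresses *Egfp* from the *Il11* promoter. All of the mice were males aged 9 to 15 weeks that had drunk 1.5% dextran sulfate sodium (DSS), a compound that injures the colonic epithelium, for 5 days and were examined on day 7. Colon cells that were negative for DAPI and for CD45, CD31, EpCAM and Ter119 were sorted into EGFP- (EGFP-Negative) and EGFP+ (EGFP-Positive) cells (n = 3 libraries per group, from 3 mice), and both groups therefore share the reporter, the strain and the DSS. Their RNA was sequenced by 5′Tag-seq, which reads tags from the 5′ side of polyadenylated transcripts. The deposited values are raw tag counts that sum to between 1022851 and 1169817 per library, and the floor of 3 tags equals 2.56 to 2.93 CPM (counts scaled to the library total). In such sorted bulk samples, fewer cells of a type and less RNA per cell cannot be told apart.
*Il11* followed the labels, with 28, 51 and 89 tags in EGFP- replicates 1, 2 and 3 and 1357, 732 and 2658 tags in EGFP+ replicates 1, 2 and 3. Its log2 fold change was 4.98 (SE 0.393 and adjusted p = 1.01e-07 by the quasi-likelihood test of edgeR with Benjamini-Hochberg adjustment). Every log2 fold change given here is EGFP+ minus EGFP-.

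EGFP+ and EGFP- cells were compared to ask whether the cells that make IL-11 carry a different level of this biosynthetic program. No member of the group was called in either direction. The test took the 9334 genes that had 10 or more tags in 3 or more of the 6 libraries, and the call required an adjusted p under 0.05 together with a fold change over 2. Of the 10 genes, 7 were tested, and *Psph*, *Chac1* and *Trib3* had too few tags. Among the 7, 0 were called higher, beside 321 of all tested genes (3.44%), and 0 were called lower, beside 595 (6.37%). With the adjusted p alone and no threshold on the fold change, the counts were again 0 and 0, beside 638 higher (6.84%) and 812 lower (8.7%) of all tested genes. At an unadjusted p under 0.05, 0 of the 7 passed by edgeR's quasi-likelihood test, beside 2490 of all tested genes (26.7%), and 0 by DESeq2, beside 1940 (20.8%).
The differences pointed both ways. The median log2 fold change of the 7 genes was 0.26, beside -0.01 over all tested genes, and 4 of the 7 values were above 0. After normalization the groups were separate for 1 of the 7, *Sesn2*, which was higher in EGFP+ cells, beside 1353 of all tested genes (14.5%), and for 0 in the lower direction, beside 1561 (16.7%).
These counts leave wide intervals. The mean tag count was under the median of all tested genes, 33.3 tags, for 6 of the 7. The 95% intervals of *Asns*, *Mthfd2* and *Sesn2* reached a fold change of 2 in the higher direction and those of *Phgdh* and *Shmt2* in the lower direction, while those of *Psat1* and *Atf5* reached it in neither.

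**Figure D1:**
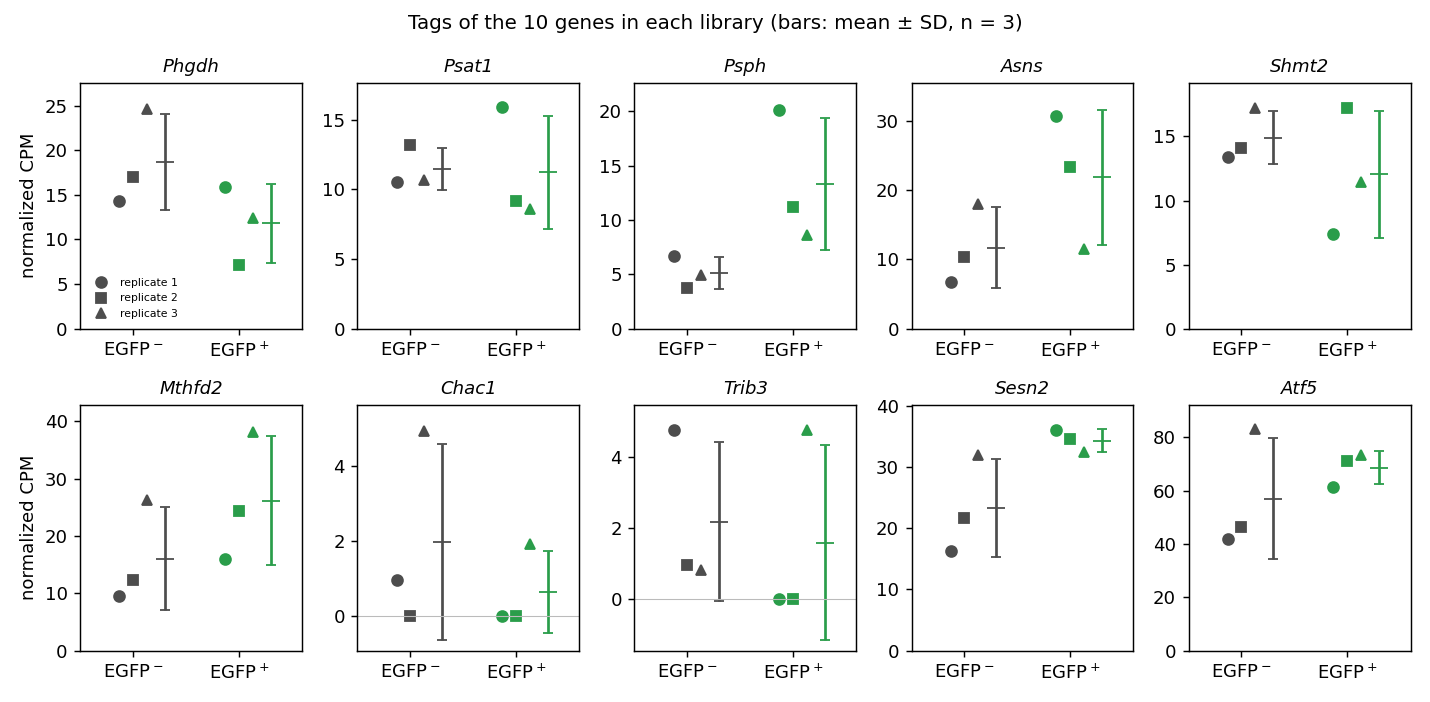
Tags of the 10 genes in each library. The vertical axes give CPM after TMM scaling (normalized CPM), each on its own scale, the point shapes mark the replicate numbers, and the bars are the mean ± SD of 3 libraries. Points of both groups overlap for 8 of the 10 genes, and those of *Psph*, which was not tested, and *Sesn2* do not. Of all tested genes, the groups were separate for 14.5% in the higher and for 16.7% in the lower direction.

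Asparagine is made from aspartate and glutamine by asparagine synthetase, the product of *Asns* (chromosome 6, 7675169 to 7693254 in GRCm38, minus strand), a much used readout of ATF4 activity. *Asns* had 7, 11 and 22 tags in EGFP- replicates 1, 2 and 3 and 29, 23 and 12 tags in EGFP+ replicates 1, 2 and 3. The groups overlapped through the libraries numbered 3, where the EGFP- library was above the EGFP+ one, whereas the EGFP+ library was above its EGFP- partner for numbers 1 and 2. In normalized CPM the level was 11.7 ± 5.81 in EGFP- and 21.8 ± 9.73 in EGFP+ cells (SD, n = 3). The log2 fold change was 0.86 (SE 0.411, 95% interval -0.01 to 1.72) with an adjusted p of 0.191 from the quasi-likelihood test of edgeR with Benjamini-Hochberg adjustment, so that the difference did not pass the test.
Whether *Asns* passed the threshold depended on the libraries numbered 3. Without both of them, a setting chosen after seeing the data, *Asns* was called higher, with a log2 fold change of 1.65 and an adjusted p of 0.0179 by the quasi-likelihood test of edgeR with Benjamini-Hochberg adjustment. Without both libraries numbered 1 it was 0.28 with an adjusted p of 0.808 by the same test, and these are the lowest and highest adjusted p over the 18 alternatives, DESeq2 among them.
*Nars*, which codes for the enzyme that loads asparagine onto its tRNA, was chosen after its values were seen. It had 91, 74 and 113 tags in EGFP- and 149, 162 and 138 tags in EGFP+ replicates 1, 2 and 3, with every EGFP+ library above every EGFP- one. Its log2 fold change of 0.86 (SE 0.178) passed the adjusted p (0.00213 by the quasi-likelihood test of edgeR with Benjamini-Hochberg adjustment) but stayed under a fold change of 2, which it passed without both libraries numbered 3 (1.05). Without both libraries numbered 2 it was 0.70 with an adjusted p of 0.0942 by the same test.

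Serine is made from the glycolytic intermediate 3-phosphoglycerate in consecutive steps by the products of *Phgdh*, *Psat1* and *Psph*. The differences between the group means of these genes did not share a direction, and none of the genes was called. *Phgdh*, the dehydrogenase that commits carbon to the pathway (chromosome 3, 98313170 to 98339990, minus strand), had 15, 18 and 30 tags in EGFP- and 15, 7 and 13 tags in EGFP+ replicates 1, 2 and 3. The mean was lower in EGFP+ cells, at 11.8 ± 4.43 against 18.6 ± 5.36 normalized CPM (SD, n = 3), and the groups overlapped. Its log2 fold change was -0.67 (SE 0.373, 95% interval -1.45 to 0.11, adjusted p = 0.272 from the quasi-likelihood test of edgeR with Benjamini-Hochberg adjustment), and it lay between -0.92 and -0.41 with 1 library left out. Of the 50-nt windows within the first 300 nt of its annotated transcripts, 26.3% also occur in other gene models, such as *Gm5207*, so some of its tags are uncertain.
*Psat1* codes for the aminotransferase that takes the amino group from glutamate (chromosome 19, 15904678 to 15947337, minus strand). Its tags were 11, 14 and 13 in EGFP- and 15, 9 and 9 in EGFP+ replicates 1, 2 and 3. The means were close, at 11.5 ± 1.50 and 11.2 ± 4.07 normalized CPM (SD, n = 3), and the EGFP+ libraries lay on both sides of the EGFP- ones. The log2 fold change was -0.04 (SE 0.394, 95% interval -0.87 to 0.79, adjusted p = 0.967 from the quasi-likelihood test of edgeR with Benjamini-Hochberg adjustment), and its sign changed when EGFP- replicate 2 (0.06), EGFP+ replicate 2 (0.09) or EGFP+ replicate 3 (0.13) was left out.
*Psph*, the phosphatase of the last step (chromosome 5, 129765558 to 129787449, minus strand), had 7, 4 and 6 tags in EGFP- and 19, 11 and 9 tags in EGFP+ replicates 1, 2 and 3. Every EGFP+ library was above every EGFP- one, at 13.3 ± 6.06 against 5.13 ± 1.47 normalized CPM (SD, n = 3), but only 2 libraries reached 10 tags and the gene was not tested. An exact two-sided permutation test gave p = 0.1, the smallest that 3 libraries against 3 allow. Any gene with separate groups gets this value, so the test adds nothing to the order of the libraries. In the fit with no filter on low genes, *Psph* had a log2 fold change of 1.39 (SE 0.493, 95% interval 0.42 to 2.35) and an adjusted p of 0.0544 by the quasi-likelihood test of edgeR with Benjamini-Hochberg adjustment, which does not pass.
Summed over the enzymes of the serine pathway, the normalized CPM were 31.5, 33.9 and 40.2 in EGFP- and 51.9, 27.4 and 29.6 in EGFP+ replicates 1, 2 and 3. EGFP+ replicate 1 was thus above every EGFP- library and the other EGFP+ libraries were below them, so the order of the groups depended on that library.

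In mitochondria, serine is split to glycine and a one-carbon unit by the product of *Shmt2*, and the unit is oxidized by that of *Mthfd2*. *Shmt2* (chromosome 10, 127517123 to 127522444, minus strand) had 14, 15 and 21 tags in EGFP- and 7, 17 and 12 tags in EGFP+ replicates 1, 2 and 3. The groups overlapped, and the log2 fold change of -0.31 (SE 0.378, 95% interval -1.10 to 0.49) did not pass the test (adjusted p = 0.662 by the quasi-likelihood test of edgeR with Benjamini-Hochberg adjustment). Leaving out 1 library moved it between -0.64 and -0.06.
*Mthfd2* (chromosome 6, 83305691 to 83325908, minus strand) is low in most adult tissues and known for its return in dividing and stressed cells. It had 10, 13 and 32 tags in EGFP- and 15, 24 and 40 tags in EGFP+ replicates 1, 2 and 3. Within every replicate number the EGFP+ library had more tags, and in both groups the library numbered 3 had the most. The means were 16.0 ± 8.98 and 26.1 ± 11.2 normalized CPM (SD, n = 3), and the log2 fold change was 0.69 (SE 0.387, 95% interval -0.13 to 1.50). Neither the fit without the block nor the one with it passed the threshold, with adjusted p of 0.278 and 0.106 by the quasi-likelihood test of edgeR with Benjamini-Hochberg adjustment.
The relatives of both enzymes were low as well. *Mthfd2l*, which codes for a mitochondrial enzyme of the same activity as MTHFD2, had 8, 10 and 7 tags in EGFP- and 13, 13 and 14 tags in EGFP+ replicates 1, 2 and 3. Its groups did not overlap, and its log2 fold change was 0.82 (SE 0.395 and adjusted p = 0.19 by the quasi-likelihood test of edgeR with Benjamini-Hochberg adjustment). *Shmt1*, the cytosolic counterpart of *Shmt2*, was at or under the floor in all libraries, with 2, 1 and 1 tags in EGFP- and 0 in each EGFP+ library, and no fold change is given.

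*Chac1* and *Trib3*, which code for an enzyme that degrades glutathione and a pseudokinase that restrains ATF4, are known to be silent at rest and strongly induced when the ATF4 response lasts. *Chac1* (chromosome 2, 119351229 to 119354381, plus strand) had 1, 0 and 6 tags in EGFP- and 0, 0 and 2 tags in EGFP+ replicates 1, 2 and 3. *Trib3* (chromosome 2, 152337422 to 152344032, minus strand) had 5, 1 and 1 tags in EGFP- and 0, 0 and 5 tags in EGFP+ replicates 1, 2 and 3. Both genes lay near the floor in both groups, and a difference was not detectable at this depth.
*Sesn2* codes for sestrin 2, a leucine sensor that restrains mTORC1 (chromosome 4, 132492032 to 132510501, minus strand). It had 17, 23 and 39 tags in EGFP- replicates 1, 2 and 3 and 34 tags in each EGFP+ library. In normalized CPM these were 16.2, 21.7 and 32.0 against 36.0, 34.5 and 32.4. The groups were separate only after normalization, by the small gap between the libraries numbered 3, and the EGFP+ libraries were closer to each other (SD 1.81) than the EGFP- ones (SD 8.02). The log2 fold change was 0.54 (SE 0.281, 95% interval -0.05 to 1.13, adjusted p = 0.234 from the quasi-likelihood test of edgeR with Benjamini-Hochberg adjustment).
*Atf5*, a transcription factor of the ATF4 family whose translation is also set by eIF2α (chromosome 7, 44812256 to 44816658, minus strand), had the most tags of the 10 genes. Its tags were 44, 49 and 101 in EGFP- and 58, 70 and 77 in EGFP+ replicates 1, 2 and 3. EGFP- replicate 3 was above all EGFP+ libraries and the other EGFP- libraries were below them. The means were 57.0 ± 22.5 and 68.7 ± 6.33 normalized CPM (SD, n = 3), with a log2 fold change of 0.26 (SE 0.239, 95% interval -0.25 to 0.76, adjusted p = 0.546 from the quasi-likelihood test of edgeR with Benjamini-Hochberg adjustment).
Among paralogs of these stress genes, *Trib1* (log2 fold change 0.08, adjusted p = 0.821) and *Trib2* (-0.12, adjusted p = 0.887) did not pass the quasi-likelihood test of edgeR with Benjamini-Hochberg adjustment. *Sesn1* had 73, 22 and 18 tags in EGFP- and 16, 15 and 13 tags in EGFP+ replicates 1, 2 and 3, with a log2 fold change of -1.22 and an adjusted p of 0.0885 by the quasi-likelihood test of edgeR with Benjamini-Hochberg adjustment. With the replicate number as a block it was called lower (-1.07, adjusted p = 0.0131 by the same test), and without EGFP- replicate 3 (-1.62) and with no filter on low genes (-1.17) also, but without EGFP- replicate 1 the value was -0.27. *Sesn3* (15, 6 and 12 against 8, 8 and 7 tags) and *Chac2* (5, 9 and 5 against 2, 7 and 2 tags) were not tested.

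The libraries of the EGFP- group were uneven for these genes. The tags of all 10 genes summed to 131, 148 and 271 in EGFP- and to 192, 195 and 213 in EGFP+ replicates 1, 2 and 3. EGFP- replicate 3 was the highest library of its group in normalized CPM for 6 of the 7 tested members, all but *Psat1*, while it was the highest for 35.1% of all tested genes. In the EGFP+ group, replicates 1, 2 and 3 were the highest for 4, 1 and 2 of the 7 members. Without EGFP- replicate 3, the log2 fold changes were 1.31 for *Asns*, 1.25 for *Mthfd2*, 0.83 for *Sesn2* and 0.62 for *Atf5*, and 0 of the 7 members were called, the lowest adjusted p being 0.0626 for *Mthfd2* by the quasi-likelihood test of edgeR with Benjamini-Hochberg adjustment. Without EGFP- replicate 1 the same genes were at 0.57, 0.41, 0.32 and 0.06. Without EGFP+ replicate 3, *Mthfd2* was at 0.31 and *Asns* at 1.17 on the log2 scale.

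*Atf4* itself (chromosome 15, 80255184 to 80257541, plus strand) was not called at the RNA level, where its control by translation is not seen. It had 811, 727 and 911 tags in EGFP- and 623, 615 and 732 tags in EGFP+ replicates 1, 2 and 3, and a log2 fold change of -0.15 (SE 0.158, 95% interval -0.49 to 0.18, adjusted p = 0.589 from the quasi-likelihood test of edgeR with Benjamini-Hochberg adjustment). In normalized CPM it was lower in the EGFP+ library of every replicate number (774.3, 684.9 and 748 against 660.3, 624.4 and 698.1), the groups overlapped, and the adjusted p with the replicate block was 0.489 by the same test. Of the 14 genes listed for the signalling of the integrated stress response, all were tested, 1 rose and 2 fell, where 3.44% of all tested genes rose and 6.37% fell, and the median log2 fold change was -0.05.
The genes that fell were *Atf3* and *Ppp1r15a*. *Atf3*, a stress-induced factor that acts downstream of ATF4 and of other signals, had 1152, 1487 and 780 tags in EGFP- and 219, 303 and 155 tags in EGFP+ replicates 1, 2 and 3, with a log2 fold change of -2.19 (SE 0.27 and adjusted p = 1.27e-05 by the quasi-likelihood test of edgeR with Benjamini-Hochberg adjustment). *Ppp1r15a*, the phosphatase subunit GADD34 that reverses eIF2α phosphorylation, had 835, 856 and 674 against 331, 342 and 259 tags, with a log2 fold change of -1.19 (SE 0.193 and adjusted p = 0.000238 by the same test with Benjamini-Hochberg adjustment). In both genes every EGFP+ library was below every EGFP- one. *Ddit3*, which codes for CHOP, was also below in every EGFP+ library (162, 161 and 165 against 91, 108 and 104 tags), but its log2 fold change of -0.53 (SE 0.165 and adjusted p = 0.0344 by the quasi-likelihood test of edgeR with Benjamini-Hochberg adjustment) stayed under a fold change of 2 and it was not called. Its adjusted p was 0.108 by DESeq2, and by the quasi-likelihood test of edgeR with Benjamini-Hochberg adjustment it was 0.0126 with the replicate block, 0.103 with no filter, and over 0.05 for 5 of the 6 libraries left out in turn.
The gene that rose was *Eif2ak3*, which codes for the ER stress kinase PERK. It had 14, 9 and 17 tags in EGFP- and 28, 27 and 25 tags in EGFP+ replicates 1, 2 and 3, with a log2 fold change of 1.16 (SE 0.315 and adjusted p = 0.0162 by the quasi-likelihood test of edgeR with Benjamini-Hochberg adjustment). The call was lost without EGFP- replicate 2 (0.96, adjusted p = 0.1) or EGFP+ replicate 1 (1.10, adjusted p = 0.0551) by the quasi-likelihood test of edgeR with Benjamini-Hochberg adjustment. It was also lost without both libraries numbered 1 (adjusted p = 0.0958) or 2 (0.97, adjusted p = 0.178 by the same test). The adjusted p went from 0.00739 to 0.178 and the log2 fold change from 0.96 to 1.38 over the 18 alternatives, DESeq2 among them.

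Of 12 other genes listed as known targets of ATF4, 8 were tested, 1 rose and 2 fell, and their median log2 fold change was -0.16. *Ddit4*, an inhibitor of mTORC1 that also answers to hypoxia and glucocorticoids, had 184, 144 and 72 tags in EGFP- and 270, 234 and 233 tags in EGFP+ replicates 1, 2 and 3, with a log2 fold change of 1.02 (SE 0.262 and adjusted p = 0.0115 by the quasi-likelihood test of edgeR with Benjamini-Hochberg adjustment). It fell under a fold change of 2 without EGFP- replicate 3 (0.66), without EGFP+ replicate 1 (0.91) and with scaling by library size only (0.94), a scaling that moved the median of all tested genes to -0.10, and without both libraries numbered 3 (0.76). Without both numbered 2 the adjusted p was lost (1.13, adjusted p = 0.077 by the same test).
*Vldlr*, a lipoprotein receptor, fell, with 54, 27 and 25 tags in EGFP- and 8, 9 and 10 tags in EGFP+ replicates 1, 2 and 3 and a log2 fold change of -1.82 (SE 0.388 and adjusted p = 0.00278 by the quasi-likelihood test of edgeR with Benjamini-Hochberg adjustment). Without both libraries numbered 1 it was -1.27 and no longer called (adjusted p = 0.0813 by the quasi-likelihood test of edgeR with Benjamini-Hochberg adjustment). *Stc2*, a secreted glycoprotein, fell as well, with 24, 42 and 23 against 10, 12 and 2 tags and a log2 fold change of -1.72 (SE 0.45 and adjusted p = 0.0127 by the same test with Benjamini-Hochberg adjustment). This call was lost without EGFP- replicate 2 (-1.36) or EGFP+ replicate 3 (-1.23) and without both libraries numbered 1 (-2.03) or 2 (-1.75). The adjusted p ranged from 0.000239 to 0.113 over the 18 alternatives, DESeq2 among them.

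The aminoacyl-tRNA synthetases, many of which ATF4 is known to induce beside *Asns*, showed 1 call. Of 12 listed as linked to ATF4, all tested, 1 rose and 0 fell, with a median log2 fold change of 0.18. The gene that rose was *Mars*, for methionine, with 15, 12 and 18 tags in EGFP- and 24, 24 and 37 tags in EGFP+ replicates 1, 2 and 3 and a log2 fold change of 1.07 (SE 0.306 and adjusted p = 0.0219 by the quasi-likelihood test of edgeR with Benjamini-Hochberg adjustment). It was not called by DESeq2 (adjusted p = 0.0657), under a fold change of 2 with library size only (0.99), and lost without EGFP- replicate 1 (1.09), EGFP- replicate 2 (0.95) or EGFP+ replicate 3 (0.88). It was also lost without both libraries numbered 1 (1.19, adjusted p = 0.0718), 2 (1.07, adjusted p = 0.121) or 3 (0.96, adjusted p = 0.119 by the same test). *Eprs*, with the most tags of the list, had a log2 fold change of -0.51 (SE 0.221 and adjusted p = 0.137 by the quasi-likelihood test of edgeR with Benjamini-Hochberg adjustment), with an adjusted p of 0.0383 in the blocked fit and 0.0153 without EGFP- replicate 1 (-0.77) by the same test. It was at -0.21 without EGFP- replicate 3 (adjusted p = 0.571 by the same test). The adjusted p was over 0.05 for 5 of the 6 libraries left out in turn. Among 8 synthetases not listed as ATF4 targets 0 were called, 1 had an unadjusted p under 0.05 by edgeR (*Vars*, chosen after its values were seen, 0.68, adjusted p = 0.119 by the quasi-likelihood test of edgeR with Benjamini-Hochberg adjustment), and the median was 0.27, with *Kars* (0.25) holding the most tags. Beside this count and those of the lists below, 26.7% of all tested genes had an unadjusted p under 0.05 by edgeR.
Serine, asparagine and their relatives enter cells through carriers, of which 7 of 12 listed were tested and 0 called, with 3 at an unadjusted p under 0.05 by edgeR and a median log2 fold change of 0.19. *Slc38a2*, a carrier of small neutral amino acids, had the most tags and a log2 fold change of -0.17 (SE 0.166 and adjusted p = 0.571 by the quasi-likelihood test of edgeR with Benjamini-Hochberg adjustment). *Slc38a1*, a related carrier of glutamine, serine and asparagine chosen after its values were seen, was not tested, with 8, 7 and 15 tags in EGFP- and 0, 0 and 1 tags in EGFP+ replicates 1, 2 and 3. In the fit with no filter on low genes it met the call for lower (adjusted p = 0.000178 by the quasi-likelihood test of edgeR with Benjamini-Hochberg adjustment). No fold change is given, as all EGFP+ libraries were under the floor. *Slc7a1*, a carrier of cationic amino acids also chosen after its values were seen, had 37, 46 and 112 against 27, 22 and 37 tags and a log2 fold change of -0.99 (adjusted p = 0.0419 by the quasi-likelihood test of edgeR with Benjamini-Hochberg adjustment), just under a fold change of 2. It was called lower with library size only (-1.08) and without EGFP- replicate 1 (-1.26), EGFP- replicate 2 (-1.17) or EGFP+ replicate 3 (-1.17), and stood at -0.47 without EGFP- replicate 3 (adjusted p = 0.35 by the same test). Its adjusted p was also over 0.05 by DESeq2, without EGFP+ replicate 1 or 2 and without both libraries of any number. The other carriers at an unadjusted p under 0.05 by edgeR were *Slc7a11* (16, 15 and 19 against 24, 16 and 48 tags) and *Slc6a6* (48, 58 and 47 against 74, 54 and 66 tags), chosen after their values were seen. Both were higher in EGFP+ cells, with groups that did not overlap in normalized CPM, at log2 fold changes of 0.96 and 0.50 (adjusted p = 0.0785 and 0.142 by the quasi-likelihood test of edgeR with Benjamini-Hochberg adjustment). *Slc7a11* was called higher without EGFP+ replicate 2 (1.25) and with no filter on low genes. It was at 0.47 without EGFP+ replicate 3.
In one-carbon metabolism beyond the members, 9 of 16 genes were tested and 0 called, with 1 at an unadjusted p under 0.05 by edgeR (*Gcsh*, chosen after its values were seen, -0.91, adjusted p = 0.0823 by the quasi-likelihood test of edgeR with Benjamini-Hochberg adjustment), a median log2 fold change of 0.03 and *Dld* (0.43) holding the most tags. Among genes that use serine, asparagine or their precursors, 7 of 12 were tested and 0 called, with 2 at an unadjusted p under 0.05 by edgeR, *Glul* and *Got1*, and a median of -0.19. *Got1*, chosen after its values were seen, was at 0.46 (adjusted p = 0.15 by the quasi-likelihood test of edgeR with Benjamini-Hochberg adjustment). *Glul*, which codes for glutamine synthetase and had the most tags of that list, had 930, 640 and 469 tags in EGFP- and 361, 275 and 305 tags in EGFP+ replicates 1, 2 and 3. Its log2 fold change of -0.98 (SE 0.236 and adjusted p = 0.00728 by the quasi-likelihood test of edgeR with Benjamini-Hochberg adjustment) lay just under a fold change of 2, which it passed with library size only (-1.06) and without EGFP- replicate 2 (-1.01), EGFP- replicate 3 (-1.25) or EGFP+ replicate 1 (-1.12), and 11.4% of its 5′ windows are shared with other gene models. *Glul* was also called lower without both libraries numbered 3. The adjusted p was over 0.05 without EGFP- replicate 1 (-0.66, adjusted p = 0.0638), without EGFP+ replicate 2 (-0.88, adjusted p = 0.0514) and without both libraries numbered 1 (-0.78, adjusted p = 0.0509) or 2 (-0.91, adjusted p = 0.131) by the same test.
ER stress genes outside ATF4 were all 13 tested with 0 called and a median log2 fold change of 0.28. At an unadjusted p under 0.05 by edgeR there were 4, beside 26.7% of all tested genes. *Hspa5*, the ER chaperone BiP and the gene with the most tags there, had a log2 fold change of -0.50 (SE 0.193 and adjusted p = 0.097 by the quasi-likelihood test of edgeR with Benjamini-Hochberg adjustment). Its adjusted p was 0.00289 with the replicate block and 0.0492 with library size only by the same test, and over 0.05 whichever library was left out. The others at that unadjusted p, chosen after their values were seen, were higher in EGFP+ cells with overlapping groups, *Pdia4* (0.56, adjusted p = 0.082), *Edem1* (0.54, adjusted p = 0.105) and *Dnajb9* (0.39, adjusted p = 0.154 by the quasi-likelihood test of edgeR with Benjamini-Hochberg adjustment). The block gave adjusted p of 0.00676, 0.0163 and 0.0753 for them by the same test. Without EGFP- replicate 1, *Pdia4* was at 0.33 (adjusted p = 0.369) and *Edem1* at 0.36 (adjusted p = 0.381 by the same test). With each of the 6 libraries left out in turn, the adjusted p by the same test was over 0.05 for 5 with *Pdia4* and *Edem1*. For *Dnajb9* it was over 0.05 for all 6. Of 8 genes of mitochondrial stress, another route to ATF4, all were tested and 0 called, with 2 at an unadjusted p under 0.05 by edgeR and a median of -0.14. *Hspd1* (0.14) had the most tags there. The genes at that unadjusted p were *Hspe1* and *Oma1*, chosen after their values were seen. *Hspe1*, the partner of HSPD1, had 113, 111 and 128 tags in EGFP- and 125, 166 and 198 tags in EGFP+ replicates 1, 2 and 3, with groups that did not overlap in normalized CPM and a log2 fold change of 0.63 (adjusted p = 0.0185 by the quasi-likelihood test of edgeR with Benjamini-Hochberg adjustment) under a fold change of 2. Its adjusted p was 0.00323 with the replicate block, 0.0565 with library size only, over 0.05 for 5 of the 6 libraries left out in turn and 0.177 without both libraries numbered 2 by the same test. *Oma1* had 11, 14 and 11 against 1, 4 and 6 tags and a log2 fold change of -1.53 (adjusted p = 0.0545 by the quasi-likelihood test of edgeR with Benjamini-Hochberg adjustment). It was called lower in the fit blocked by replicate number (-1.55, adjusted p = 0.0448), with library size only (-1.60, adjusted p = 0.0471) and without EGFP+ replicate 3 (-2.01, adjusted p = 0.0276) or both libraries numbered 3 (-2.14, adjusted p = 0.0387) by the same test. It was at -1.12 without EGFP+ replicate 1 (adjusted p = 0.187 by the same test).

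**Figure D2:**
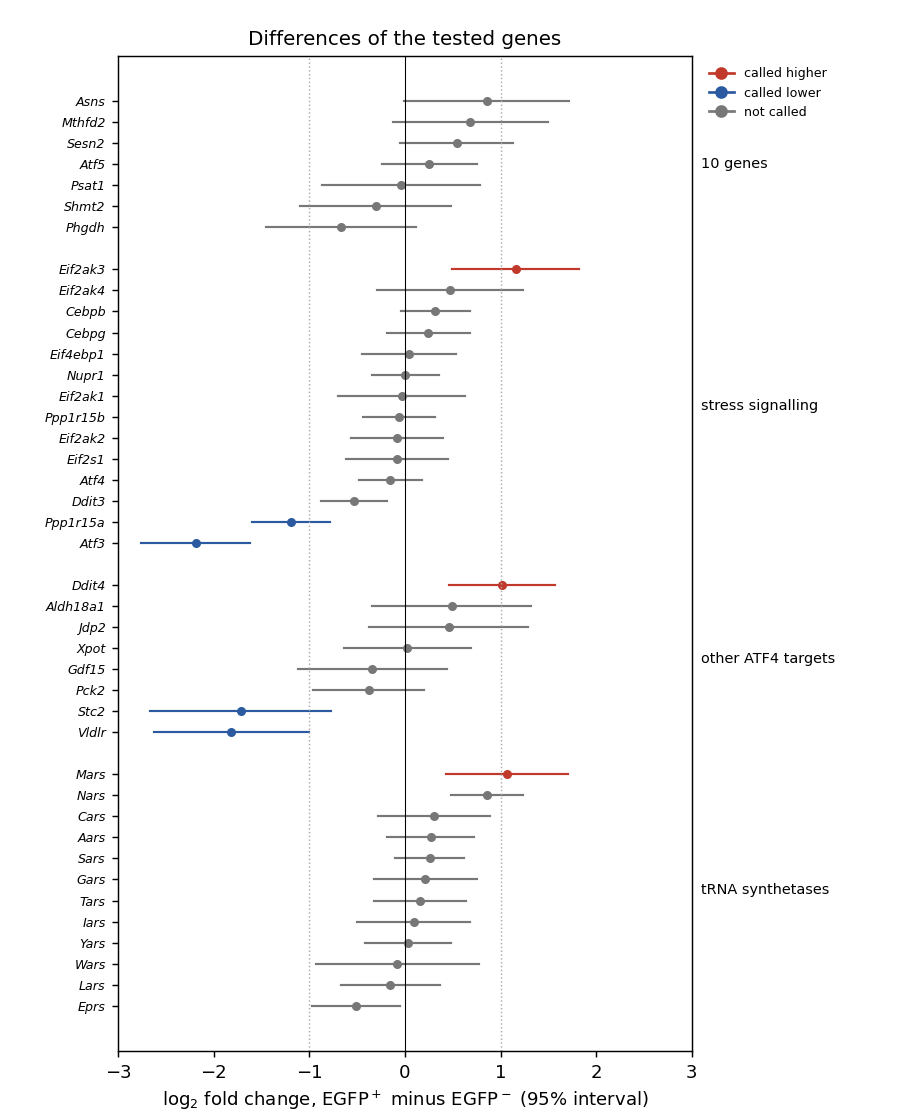
Differences of the tested genes. The horizontal axis gives the log2 fold change (EGFP+ minus EGFP-) with its 95% interval from edgeR, the dotted lines mark a fold change of 2, and colors mark the calls. The intervals of all 7 tested members cross 0, and those of *Atf3* and *Ppp1r15a* lie below it.

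Promoters were searched for the letters of the C/EBP-ATF composite element, TGATGNAA on either strand, which ATF4 is known to bind, because the members are grouped by this factor. In RefSeq promoters of GRCm38.p6, from 250 bases before to 50 bases after the start, 1304 of 32851 (3.97%) held the letters. All 10 members had a promoter in the table, and 3 held the letters, *Asns* 23 bases before the start, *Chac1* 193 bases before it and *Trib3* 15 bases after it. The other 7 did not hold them in this window, which says nothing on binding. Of the members with the letters, *Asns* was tested and not called, and *Chac1* and *Trib3* were too low to test. Other listed genes hold the letters, were not called and are not printed, such as *Slc7a11* (log2 fold change 0.96) and *Pck2* (-0.38). The sites of *Asns* and *Chac1* are printed with those of *Atf3* and *Vldlr*, picked as called lower (5′ to 3′ on the strand of the gene, element in capitals, the reverse strand reading TTNCATCA).
*Asns*, chr6:7693214-7693243, minus strand: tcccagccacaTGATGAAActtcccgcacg
*Chac1*, chr2:119351038-119351067, plus strand: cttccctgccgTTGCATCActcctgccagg
*Atf3*, chr1:191183425-191183454, minus strand: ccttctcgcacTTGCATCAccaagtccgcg
*Vldlr*, chr19:27216809-27216838, plus strand: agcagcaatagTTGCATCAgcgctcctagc
In GENCODE the *Asns* site overlaps an untranslated part of a transcript that starts further upstream, the *Chac1* site lies upstream of the gene, the *Atf3* site in an intron of a longer transcript and the *Vldlr* site in an exon of another transcript. Of 189 tested genes with the letters in a promoter, 6 (3.17%) were called higher and 21 (11.1%) lower, with a median log2 fold change of -0.05. Of 6986 tested genes with a promoter and no such letters, 213 (3.05%) were called higher and 420 (6.01%) lower, with a median of -0.01, and the difference between these shares was not tested.

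Markers of other cell types moved with the EGFP groups that the members were compared in. Of 10 pericyte and smooth muscle markers 9 fell, with a median log2 fold change of -3.61, those with the smallest p being *Rgs5* (-3.11), *Des* (-3.59), *Tagln* (-3.62) and *Myh11* (-4.55). Their summed normalized CPM were 4397, 4564 and 5058 in EGFP- and 564.9, 621.4 and 663.7 in EGFP+ replicates 1, 2 and 3, with *Rgs5* the most abundant. The remaining marker, *Kcnj8*, chosen after its values were seen, was not called and differed in the other direction, with 145, 115 and 100 tags in EGFP- and 213, 191 and 125 tags in EGFP+ replicates 1, 2 and 3. Its log2 fold change was 0.71 (adjusted p = 0.0394 by the quasi-likelihood test of edgeR with Benjamini-Hochberg adjustment), the groups overlapped, and without EGFP- replicate 3 it was 0.52 (adjusted p = 0.183 by the same test).
Among enteric glia markers *Gfap* fell, with 22, 23 and 26 tags in EGFP- and 1, 0 and 1 tags in EGFP+ replicates 1, 2 and 3. Its fold change is not given, as all EGFP+ libraries were under the floor. Of 7 markers of mesothelium and interstitial cells of Cajal 3 were tested and fell, *Ano1* (-4.59), the most abundant, *Kit* (-4.34) and *Etv1* (-1.12), with sums of 284.5, 172.4 and 273.4 against 21.2, 20.3 and 52.5 normalized CPM. In EGFP+ replicates 1, 2 and 3, *Ano1* had 1, 0 and 15 tags and *Kit* had 0, 0 and 7. Without EGFP+ replicate 3, *Ano1* was at -7.69, with its remaining EGFP+ libraries under the floor. *Sox10* and *S100b*, defining markers of glia, were at 0 tags in all EGFP+ libraries. In EGFP- replicates 1, 2 and 3 they had only 2, 3 and 5 and 3, 9 and 4 tags, and neither was tested. *Ngfr*, a glia marker chosen after its values were seen, did not fall and was not tested, with 0, 3 and 3 against 2, 3 and 2 tags.
Of 10 fibroblast markers, all tested, 2 rose, *Col3a1* (1.04) and *Pdpn* (1.06), and 0 were called lower. By the adjusted p alone, 4 were higher and 1 lower. The lower gene, *Lum*, chosen after its values were seen, had 1072, 1296 and 2153 tags in EGFP- and 681, 902 and 992 tags in EGFP+ replicates 1, 2 and 3, with every EGFP+ library below every EGFP- one. Its log2 fold change was -0.64 (adjusted p = 0.0378 by the quasi-likelihood test of edgeR with Benjamini-Hochberg adjustment), and -0.40 without EGFP- replicate 3 (adjusted p = 0.186 by the same test). The sums of the 10 were 22830, 22910 and 25270 in EGFP- and 43100, 34860 and 30930 normalized CPM in EGFP+ replicates 1, 2 and 3, with *Dcn* the most abundant. The calls of *Col3a1* and *Pdpn* were lost under a fold change of 2 with library size only (0.96 and 0.97), without EGFP- replicate 1 (0.83 and 0.94) and without both libraries numbered 1 (0.85 and 0.87). That of *Pdpn* was also lost without EGFP+ replicate 1 (0.97). Without both numbered 2, *Col3a1* lost the adjusted p (1.05, adjusted p = 0.081 by the quasi-likelihood test of edgeR with Benjamini-Hochberg adjustment).
The defining markers of cell types removed by the gate were low. Among epithelial markers *Lgals4* alone was tested and fell (-1.26). The call was lost without EGFP- replicate 3 (-1.14), EGFP+ replicate 1 (-1.02) or EGFP+ replicate 2 (-1.16) and without both libraries numbered 1 (-1.03) or 2 (-1.27). *Epcam* had at most 1 tag per library. The epithelial sums were 31.5, 25.4 and 52.6 in EGFP- and 9.54, 13.2 and 23.8 normalized CPM in EGFP+ replicates 1, 2 and 3. In EGFP- replicate 3, 6 of the 7 tested members were highest in their group. Within the EGFP- group the epithelial, fibroblast, pericyte and smooth muscle, glia and endothelial sums were all highest in that library. The sums of immune markers and of mesothelium and interstitial cells of Cajal were not. Among endothelial markers *Esam*, which pericytes also express, was tested and fell (-3.71), with sums of 41.1, 67.8 and 69.0 against 7.42, 10.2 and 17.2 normalized CPM, and *Pecam1* had at most 1 tag. No immune marker had enough tags for the test, *Ptprc* had at most 7 tags, and their sums, led by *Cd68*, were 22.0, 23.6 and 18.9 against 31.8, 16.3 and 17.2 normalized CPM. The part of these cell types in the values of the 10 genes was not tested.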

How the data were processed

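The files hold raw tag counts per gene symbol. According to the methods, the authors trimmed 5′Tag-seq reads with Cutadapt 1.18 and aligned 1 orientation with Bowtie2 2.2.5 to RefSeq RNA of mm10; the deposited counts are the tags per gene. How tags that match several genes were treated is not given in the sources used here. The sentence on low genes in the methods, taken literally, removes those with 10 tags and more; it was read in reverse.

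Counts of genes with 10 or more tags in 3 or more of 6 libraries were tested in R 4.3.3 with edgeR 4.0.16 (TMM scaling, the quasi-likelihood test of edgeR with Benjamini-Hochberg adjustment, group as the only factor). Intervals and floors cover counting error and the spread between these libraries, and PCR copies are not independent molecules.

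The members and lists were chosen with earlier results of these data known. Named are the 10 members, *Il11*, *Atf4*, *Ddit3*, the paralogs with tags, and, of each other list, the called genes (at most 4 a direction, by smallest p) and the gene with the most tags.

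Libraries with the same replicate number were taken as coming from the same mouse (the methods name 3 mice, the labels do not state it), and their deviations from the group means correlated at r = 0.23, 0.19 and 0.26 (mean of differently numbered libraries, -0.11) over the 5063 genes with 30 or more tags on average. Alternatives were RLE, library size only, iterative TMM, DESeq2 1.42.0, other filters, the replicate block, the adjusted p alone and each library left out; a filter of 10 tags in 2 libraries and leaving out both libraries of 1 number were added after seeing the data. Positions are from GENCODE M21. *Fgf21*, *Slc7a3*, *Sds*, *Cdh1*, *Adgre1* and *Cdh5* were listed and not analysed here, and 1 listed marker is not reported here.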

Additional observations from a re-analysis of the deposited data

How the results depend on the processing

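Across the 18 alternatives, 0 members were called in either direction except without both libraries numbered 3, a setting added after seeing the data, where 1 was called higher (*Asns*, log2 fold change 1.65, adjusted p = 0.0179 by the quasi-likelihood test of edgeR with Benjamini-Hochberg adjustment, among values of 0.0179 to 0.808 over the alternatives, DESeq2 included). The cause was not tested. The replicate block gave 337 genes higher and 648 lower in place of 321 and 595, and changed no call of a named gene but those of *Sesn1* and *Oma1*. The adjusted p alone gave 638 genes higher. Leaving out 1 library at a time gave 341 to 579 genes lower, with fewer libraries and fewer genes tested. The sign changed for *Psat1*, between -0.36 and 0.13 with 1 library left out, at 0.20 without both libraries numbered 2 and at 0.08 without both numbered 3. It also changed for *Trib1*, between -0.06 and 0.16 with 1 library left out, and for *Trib2*, at 0.05 without both numbered 2. *Asns*, *Phgdh*, *Shmt2*, *Mthfd2*, *Sesn2* and *Atf5* kept their sign under every alternative. Depth limits the low members: *Chac1* and *Trib3* had at most 6 tags in a library, and *Psph* reached 10 tags in 2 libraries.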
